A study of Homo sapiens with 8 samples.

Results

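The H/ACA box snoRNAs are small nucleolar RNAs named SNORA. They were taken here as the transcripts whose RefSeq identifier is paired with a symbol that begins with SNORA, without SNORA73A and SNORA73B, which left 112 of the 53216 transcripts measured and 105 gene symbols. RNA of HEK293T cells, a line derived from human embryonic kidney, was sequenced in 8 libraries grown under standard culture with no treatment. There were 2 wild-type (WT) groups: 2 libraries of RNA depleted of ribosomal RNA with RiboMinus, labelled control, and 3 libraries enriched by NAD-Capture. The third group held 3 NAD-Capture DXO-KO-labelled libraries, a knockout of DXO, the gene of a decapping enzyme that removes NAD caps. NAD-Capture converts the NAD at the 5′ end of an RNA with an ADP-ribosyl cyclase to a form that takes biotin in a click reaction, and streptavidin beads then bind it. The labels do not say how the knockout was made, whether it is a clone, or whether replicates came from separate cultures, so p-values measure the spread between these libraries, which may be technical. Reactions without the cyclase were not analysed here, so RNA bound through NAD and RNA bound without it cannot be told apart. The RiboMinus and NAD-Capture libraries were also made with different kits, so kit and enrichment cannot be told apart in any comparison between them.

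H/ACA box snoRNAs fold into a pair of hairpins joined by a hinge that carries the H box, and end in a tail with the ACA box. With the proteins dyskerin (DKC1), NHP2, NOP10 and GAR1 they form particles in the nucleolus that convert chosen uridines of ribosomal RNA to pseudouridine, the snoRNA pairing with the bases around the target. In human cells most are made from introns of other genes and trimmed at both ends, so that the 5′ end of the finished RNA is a cut end rather than a transcription start.

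The 105 symbols were all matched to transcripts of GENCODE release 29 on GRCh38, which were 121 to 249 nt long with a median of 134 nt and a median GC content of 49.6%. The letters ANANNA, the H box, began between positions 55 and 85 in 98 of the 105 (93.3%), against 46.1% of 1348 other GENCODE transcripts of 120 to 160 nt searched on the transcript strand. The letters ACA stood 3 nt from the 3′ end in 80 (76.2%), against 11.4% of those other transcripts and 1.41% of 284 C/D box snoRNA transcripts (SNORD). Both motifs were found in 75. The sequences below are those of 3 of the members with the most NAD-Capture signal. Capitals mark the first ANANNA in that window and this ACA, taken as the H box and the ACA box by their letters and position alone.
SNORA3B: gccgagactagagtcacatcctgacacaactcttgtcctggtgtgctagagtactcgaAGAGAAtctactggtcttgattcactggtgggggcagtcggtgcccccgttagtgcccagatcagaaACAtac
SNORA62: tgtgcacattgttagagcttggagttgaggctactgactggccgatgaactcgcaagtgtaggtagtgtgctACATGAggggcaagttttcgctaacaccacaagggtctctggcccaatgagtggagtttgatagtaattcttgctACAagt
SNORA6: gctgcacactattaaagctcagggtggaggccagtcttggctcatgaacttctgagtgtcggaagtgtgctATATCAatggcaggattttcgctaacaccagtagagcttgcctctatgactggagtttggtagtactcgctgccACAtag
SNORA3B lies at chr11:8685439-8685569 on the plus strand within RPL27A. SNORA6 at chr3:39408389-39408539 and SNORA62 at chr3:39411054-39411206 lie on the plus strand within RPSA. RPL27A and RPSA both encode ribosomal proteins. SNORA18 lies within TAF1D and SNORA20 within TCP1, the gene of a chaperonin subunit.

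DXO itself was not lower in the DXO-KO-labelled libraries. Its level in FPKM, which counts fragments relative to transcript length and library depth, was 11.2 and 14.3 in RiboMinus, 33.2, 17.2 and 27.1 in NAD-Capture WT and 128, 61.6 and 71.7 in the DXO-KO-labelled libraries. Between the 2 kinds of NAD-Capture library it differed by 1.69 on the log2(FPKM + 1) scale (SE 0.45, limma adjusted p = 0.312), with an exact two-sided permutation p of 0.1, the smallest that 3 against 3 libraries can give. Whether the knockout leaves this RNA in place is not stated in the labels. Depth differed widely. Most low FPKM values of transcripts of 1 length were whole multiples of a step, taken as the value of 1 fragment. In each library 83.3% to 97.4% of the members' low values lay within 0.1 of a whole number. The step was itself chosen to make such values whole, so this share describes the fit and is no separate check of it. A value far under 1 step, such as 11.7 FPKM of SNORA56 in replicate 1 labelled DXO-KO, was read as 0 fragments. The steps put the scale at 8706278 to 10658293 fragments in RiboMinus, 164893 to 247639 in NAD-Capture WT and 80485 to 801511 in the DXO-KO-labelled libraries. Of the markers of this line (KRT8, KRT18, VIM, NEFM, LIN28B), all 5 were above 0 in each library, except KRT18 at 0 in replicate 3 labelled DXO-KO, with sums of 149 to 396 FPKM. Of 11 markers of other cell types, PTPRC and HBB were at 0 in each library, and the sums were 1.85 to 2.49 FPKM in RiboMinus, 18.4 to 36.2 in NAD-Capture WT and 2.92 to 19.0 in the DXO-KO-labelled libraries. The part of these other markers in the results below was not tested.

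The step gives the reads behind a snoRNA's FPKM. For a transcript of 133 nt, 1 fragment was worth 21.1 and 15.8 FPKM in RiboMinus, 447, 503 and 336 in NAD-Capture WT and 90.1, 546 and 3076 in the DXO-KO-labelled libraries. Replicate 3 labelled DXO-KO stood apart: its value of 1 fragment at 133 nt was 248 times its value at 1 kb, while the remaining 5 NAD-Capture libraries had ratios of 72.2 to 85.7. In RiboMinus this ratio was 225 and 138. Because the length correction for short RNA thus differed between libraries, levels are given below both as deposited FPKM and as FPM, the recovered fragments per 1000000 fragments of that scale, for the 106 members of 121 to 154 nt. Many members rest on few reads: 24 to 32 members in each NAD-Capture WT library, and 15, 24 and 27 in those labelled DXO-KO, had 1 to 3 fragments.

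H/ACA box snoRNAs took a larger part of the NAD-Capture libraries than of RiboMinus, and in recovered fragments the largest part in the DXO-KO-labelled libraries. This was not particular to them. In RiboMinus, NAD-Capture WT and the DXO-KO-labelled libraries, C/D box snoRNAs had mean shares of summed FPKM of 4.53%, 12.6% and 42.2%. Cajal body RNAs (SCARNA) had 0.745%, 2.15% and 4.34%. The H/ACA share of summed FPKM was 4.59% and 4.74% in RiboMinus, 9.45%, 8.04% and 6.65% in NAD-Capture WT, and 20.2%, 5.41% and 18.6% in the DXO-KO-labelled libraries. By this share replicate 2 labelled DXO-KO was below the NAD-Capture WT libraries; C/D box snoRNAs made 75% of its sum, and without their rows the H/ACA share was 21.6%, beside 25.9% and 26.4% in replicates 1 and 3 and 7.49% to 10.7% in NAD-Capture WT. In FPM, the members held 120 and 202 in RiboMinus, 1706, 2074 and 901 in NAD-Capture WT, and 3732, 6413 and 5604 in the DXO-KO-labelled libraries. On this scale the 3 groups did not overlap. The means were 161 ± 58.5 (SD, n = 2), 1560 ± 600 (SD, n = 3) and 5249 ± 1375 (SD, n = 3), ratios of 9.68 for NAD-Capture WT to RiboMinus and 3.36 for the DXO-KO-labelled libraries to NAD-Capture WT, given with no test since they sum over chosen members.

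**Figure D1:**
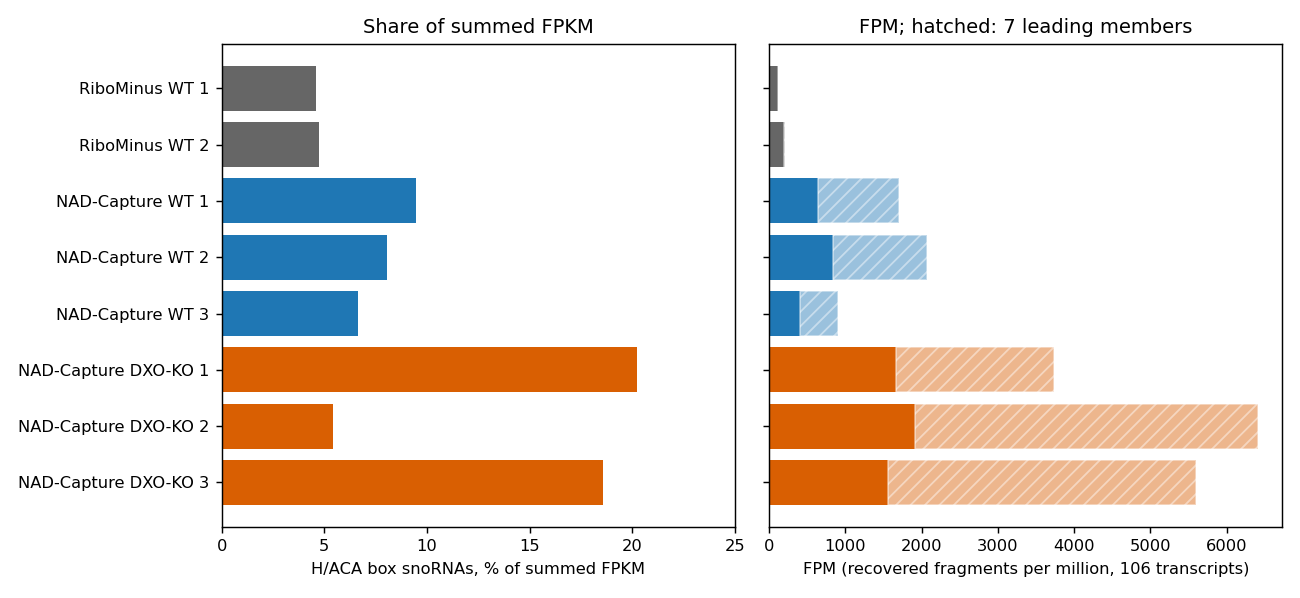
Left, share of summed FPKM (%) taken by the 112 H/ACA box snoRNA transcripts in each library; right, FPM for the 106 transcripts of 121 to 154 nt, with the hatched part of each bar being SNORA18, SNORA20, SNORA3B, SNORA49, SNORA6, SNORA62 and SNORA7A. In fragments the DXO-KO-labelled libraries (3732 to 6413) lie above NAD-Capture WT (901 to 2074) and both above RiboMinus (120 and 202), while the FPKM share of replicate 2 labelled DXO-KO (5.41%) is below NAD-Capture WT.

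A few members carried the NAD-Capture signal. Those with at least 10 fragments in each NAD-Capture WT library were SNORA18, SNORA20, SNORA3B, SNORA49, SNORA6, SNORA62 and SNORA7A, a set chosen after its values were seen. These 7 held 62.7%, 59.6% and 55.2% of the members' fragments in NAD-Capture WT and 55.4%, 70.3% and 72.3% in the DXO-KO-labelled libraries, but 4.31% and 6.18% in RiboMinus. In RiboMinus the top 5 by FPKM were SNORA48, SNORA71A, SNORA63, SNORA70 and SNORA64 in both libraries, and none of them was among the top 5 of any NAD-Capture library. Of the 112 transcripts, 31 were above 0 in all 8 libraries and 19 at 0 in all 8, among them 6 of the 7 rows of SNORA38, both rows of SNORA59B and SNORA70C, SNORA70E, SNORA70F and SNORA70G. The number above 0 was 65 and 74 in RiboMinus, 50 to 54 in NAD-Capture WT and 77, 57 and 49 in the DXO-KO-labelled libraries, of which replicate 1, the deepest NAD-Capture library, alone showed 10 members among the NAD-Capture libraries.

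**Figure D2:**
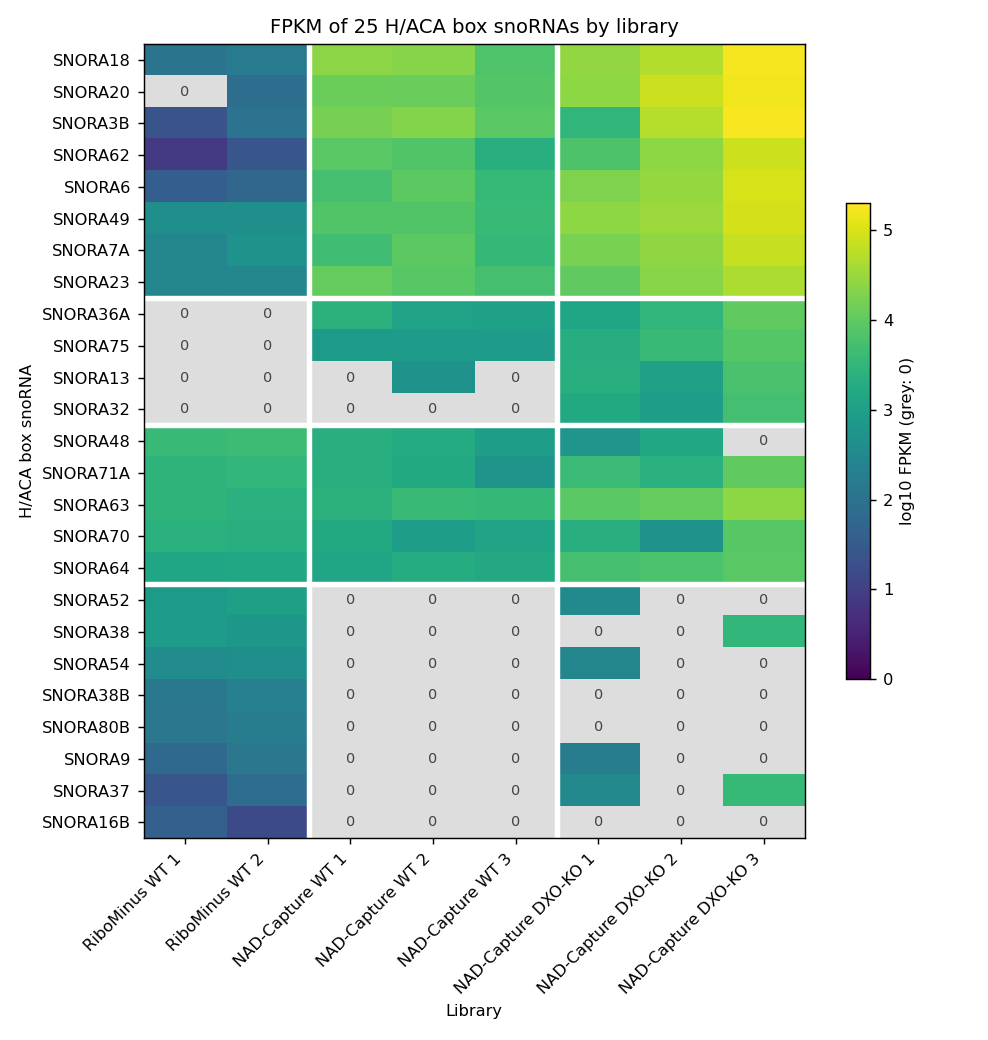
FPKM (log10 colour scale, grey for 0) of 25 H/ACA box snoRNAs in the 8 libraries, from top to bottom those with the most NAD-Capture signal, those at 0 in RiboMinus, those most abundant in RiboMinus, and those called lower in NAD-Capture WT; for SNORA38 the row with values is shown. SNORA36A, SNORA75, SNORA13 and SNORA32 are at 0 in both RiboMinus libraries, and the bottom 8 are at 0 in the 3 NAD-Capture WT libraries.

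Which H/ACA box snoRNAs differ between NAD-Capture and RiboMinus RNA of WT cells was tested with limma over the 24777 transcripts whose FPKM averaged 1 or more. Of the 86 members tested, 19 were called higher in NAD-Capture at an adjusted p under 0.05, against 12.6% of all transcripts, and 10 were called lower, against 13.1%. The median log2 difference of the members was 0.81, against 0.24 over all transcripts. After scaling each library to an equal sum (TPM) the members' median was -0.29, against -1.19 over all transcripts. Under TPM 17 members were called higher, against 7.98% of all transcripts, and 15 lower, against 30.8%. Under quantile normalization the calls were 18 higher, against 2603 of all 24777 transcripts, and 16 lower, against 3311 of them. The calls depended on having both RiboMinus libraries: without replicate 1 they were 6 higher (2.54% of all transcripts) and 14 lower (8.31%), and without replicate 2 they were 7 higher (2.49%) and 12 lower (8.2%). Groups did not overlap for 29 members higher (21.3% of all transcripts did so) and 14 lower (26.5%). Of 31 C/D box snoRNAs tested 19.4% were called higher and 9.68% lower. Of 22 Cajal body RNAs tested 31.8% were called higher and 4.55% lower, beside 22.1% and 11.6% of the H/ACA members.

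SNORA18 had 112 and 149 FPKM in RiboMinus and 23819, 21939 and 6949 in NAD-Capture WT, from 5 and 9 fragments against 51, 42 and 20. The groups were far apart although the RiboMinus libraries were the deeper ones. The log2 difference was 6.88 (SE 0.65, limma adjusted p = 0.00475), but with only RiboMinus replicate 2 or only replicate 1 the adjusted p was 0.0792 and 0.0702. SNORA3B had 23.7 and 105 FPKM in RiboMinus and 16522, 20666 and 8681 in NAD-Capture WT, a log2 difference of 8.13 (SE 0.79, limma adjusted p = 0.00503). SNORA6 and SNORA62 share their host RPSA and both were called higher. SNORA6 had 38.6 and 55.7 FPKM in RiboMinus and 5496, 9337 and 3488 in NAD-Capture WT, a log2 difference of 6.89 (SE 0.49, limma adjusted p = 0.00274). SNORA62, a guide of 28S ribosomal RNA, had 7.90 and 26.8 FPKM, 1 and 4 fragments, in RiboMinus and 8852, 7343 and 2185 in NAD-Capture WT. Its log2 difference was 8.38 (SE 0.87, limma adjusted p = 0.00588), and the adjusted p was 0.0712 without RiboMinus replicate 1. SNORA20, a guide of 18S ribosomal RNA, had 0 and 83.0 FPKM in RiboMinus and 13077, 12014 and 7644 in NAD-Capture WT. Its log2 difference of 10.18 (SE 2.05, limma adjusted p = 0.0315) had the largest error of these members, with 1 RiboMinus library at 0, and the adjusted p was 0.0712 to 0.0772 without any 1 of the NAD-Capture WT libraries and 0.0704 with a pseudocount of 0.1. In FPM, NAD-Capture WT held 200 ± 104 of SNORA18, 168 ± 67.2 of SNORA3B, 144 ± 80.4 of SNORA62, 125 ± 62.2 of SNORA6 and 125 ± 31.3 of SNORA20 (SD, n = 3), and RiboMinus less than 1 of each on average.

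SNORA23, SNORA49 and SNORA7A were present in RiboMinus and were called higher in NAD-Capture WT. SNORA23 rose from 272 and 287 FPKM to 11206, 8289 and 5334, a log2 difference of 4.82 (SE 0.35, limma adjusted p = 0.00283, and 0.0511 without RiboMinus replicate 1). SNORA49 had 441 and 429 FPKM in RiboMinus and 7351, 7346 and 3734 in NAD-Capture WT, a log2 difference of 3.75 (SE 0.37, limma adjusted p = 0.00512, and 0.0853 and 0.0864 without RiboMinus replicate 1 or 2). In both, the lowest NAD-Capture value was far above the highest RiboMinus value. The other members called higher were SNORA24, SNORA25, SNORA27, SNORA3A, SNORA53, SNORA58, SNORA7B, SNORA8 and SNORA81, with log2 differences of 2.45 for SNORA8 to 4.22 for SNORA27.

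SNORA36A and SNORA75 were the members above 0 in all 6 NAD-Capture libraries and at 0 in both RiboMinus libraries. They are shown because their host genes are linked to the nucleolus: SNORA36A lies at chrX:154768528-154768659 on the plus strand within DKC1, the gene of the pseudouridine synthase itself, and SNORA75 at chr2:231455800-231455936 on the minus strand within NCL, the gene of nucleolin.
SNORA36A: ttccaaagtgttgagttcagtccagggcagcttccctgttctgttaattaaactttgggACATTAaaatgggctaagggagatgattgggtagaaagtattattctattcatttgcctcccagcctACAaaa
SNORA75: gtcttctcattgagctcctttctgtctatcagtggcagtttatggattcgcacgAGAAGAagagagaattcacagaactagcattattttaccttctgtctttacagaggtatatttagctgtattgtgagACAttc
SNORA36A had 2530, 1129 and 1061 FPKM in NAD-Capture WT, from 5, 2 and 3 fragments, and 1320, 3067 and 10337 in the DXO-KO-labelled libraries, from 14, 5 and 3. Its mean FPKM in NAD-Capture WT was 55 times the level of 3 fragments over both RiboMinus libraries (limma adjusted p = 0.00216). SNORA75 had 774, 864 and 862 FPKM in NAD-Capture WT, from 2, 2 and 3 fragments, and 2018, 3767 and 7895 in the DXO-KO-labelled libraries, from 26, 8 and 3. Its mean FPKM in NAD-Capture WT was 37.5 times the RiboMinus level of 3 fragments (limma adjusted p = 0.00216). For both members the RiboMinus values of 0 added no spread, so the p-values do not cover the counting error of so few fragments. DKC1 and NCL themselves were well expressed in RiboMinus, at 114 and 118 FPKM for DKC1 and 645 and 593 for NCL. The near copy SNORA36C, 97.0% identical to SNORA36A, was above 0 only in NAD-Capture WT replicate 3, with 1 fragment, so reads of the pair may be split in counting.

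All 10 members called lower were at 0 in each NAD-Capture WT library. SNORA52, which lies within RPLP2, another ribosomal protein gene, is the most abundant of them, and SNORA48, within EIF4A1, a translation initiation factor gene, is the most abundant member in RiboMinus.
SNORA52: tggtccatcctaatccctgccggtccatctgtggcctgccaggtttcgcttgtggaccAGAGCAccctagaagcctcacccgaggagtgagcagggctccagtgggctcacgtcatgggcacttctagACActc
SNORA48: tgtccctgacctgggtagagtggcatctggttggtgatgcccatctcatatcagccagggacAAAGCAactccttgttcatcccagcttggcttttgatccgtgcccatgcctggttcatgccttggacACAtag
SNORA52 (chr11:811681-811814, plus strand) had 778 and 1036 FPKM in RiboMinus, 39 and 69 fragments, and was at 0 in NAD-Capture WT, where its RiboMinus mean would have given 6.79 fragments over the 3 libraries. That mean was 2.26 times the level of 3 fragments over those libraries in FPKM (limma adjusted p = 0.00216), and 1.17 times in FPM. One row of SNORA38 had 826 and 631 FPKM in RiboMinus, 37 and 38 fragments. Its RiboMinus mean was 1.68 times the level of 3 fragments over the NAD-Capture WT libraries in FPKM (limma adjusted p = 0.00216). In FPM its RiboMinus mean of 3.92 lay under the limit of 4.96 that 3 fragments over the NAD-Capture WT libraries set. With all 8 libraries in 1 fit its adjusted p was 0.122. The RiboMinus means of the other 8, SNORA54, SNORA38B, SNORA80B, SNORA9, SNORA37, SNORA16B, SNORA46 and SNORA17A, would have given 0.112 to 1.90 fragments over the 3 NAD-Capture WT libraries, so for these a difference was not detectable at this depth, whatever the limma call.

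SNORA48 and the other members that lead in RiboMinus did not pass the test in either direction. SNORA48 (chr17:7574713-7574847, plus strand) had 3907 and 4347 FPKM in RiboMinus, 2082, 1860 and 928 in NAD-Capture WT and 584, 1518 and 0 in the DXO-KO-labelled libraries. The RiboMinus libraries were above all the others, but the log2 difference of -1.43 in NAD-Capture WT (SE 0.41) had a limma adjusted p of 0.0821. It was 0.0111 without NAD-Capture WT replicate 3 and 0.00232 under TPM, and in FPM the means were close, 27.0 in RiboMinus and 20.8 ± 7.59 in NAD-Capture WT (SD, n = 3). SNORA71A had 2768 and 3219 FPKM in RiboMinus and 2240, 1668 and 554 in NAD-Capture WT, with a log2 difference of -1.23 (SE 0.68, limma adjusted p = 0.331), and of -2.75 with an adjusted p of 0.0171 under TPM. SNORA70 had 2397 and 2216 FPKM and 1666, 930 and 1237, with a log2 difference of -0.89 (SE 0.28, limma adjusted p = 0.103, 0.034 without NAD-Capture WT replicate 1 and 0.0206 under TPM). For SNORA63, a guide of 28S ribosomal RNA within EIF4A2, and SNORA64, within RPS2, the NAD-Capture WT and RiboMinus FPKM values overlapped. Their log2 differences were 0.34 (SE 0.22) and 0.20 (SE 0.20), and -1.19 and -1.33 under TPM. In FPM both were higher in NAD-Capture WT with no overlap. SNORA63 had 13.6 and 18.1 in RiboMinus and 31.3, 48.5 and 44.4 in NAD-Capture WT. SNORA64 had 6.38 and 10.8, then 15.6, 24.3 and 20.2. The mean FPM in RiboMinus and NAD-Capture WT was close for SNORA71A (22.9 and 21.2) and SNORA70 (14.8 and 16.4).

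**Figure D3:**
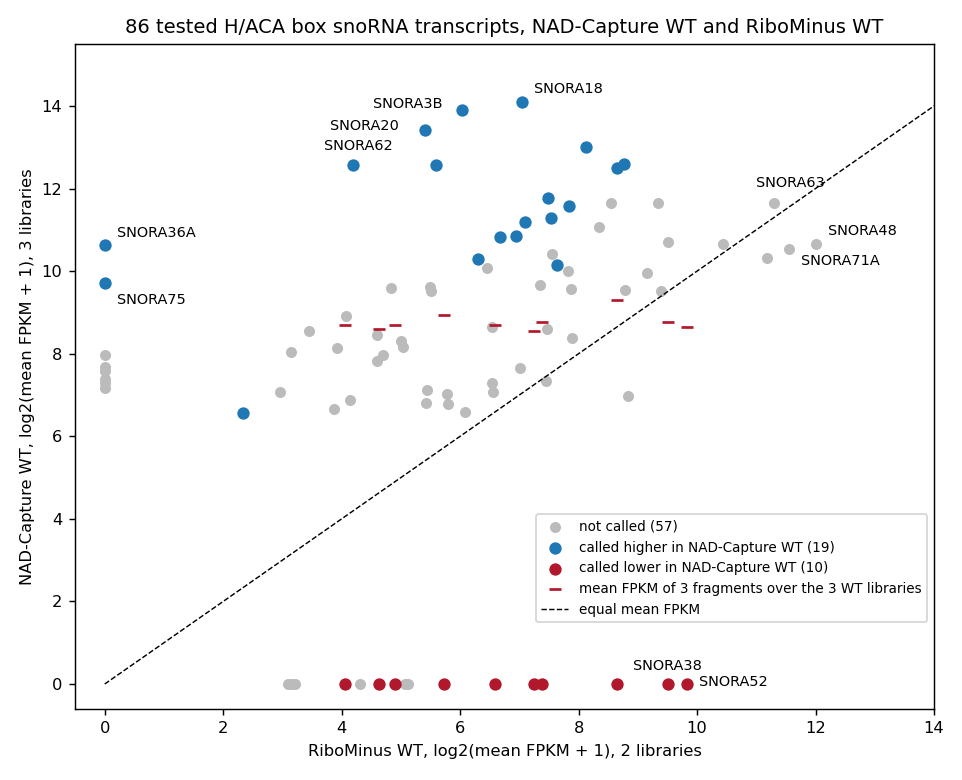
Mean FPKM of the 86 tested H/ACA box snoRNA transcripts in NAD-Capture WT (3 libraries) against RiboMinus WT (2 libraries), both as log2(mean FPKM + 1); dashes mark, for each member called lower, the level that 3 fragments over the NAD-Capture WT libraries would give. The 19 members called higher lie above the line of equal levels, and all 10 called lower are at 0, of which SNORA52 and SNORA38 alone had RiboMinus levels above their dash.

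Which members differ between the NAD-Capture DXO-KO-labelled libraries and those of WT cells was tested over 25004 transcripts. Of 86 members tested, SNORA32 alone passed. It was higher, as were 0.024% of all transcripts, and 0 members were called lower, against 0.008%; in either direction 0.032% of all transcripts passed. For 31 members the unadjusted limma p was under 0.05, 36% against 9.17% of all transcripts. The members' levels were in the main higher in the DXO-KO-labelled libraries: the log2 difference was above 0 for 72 and below 0 for 14, with a median of 2.12 against -0.06 over all transcripts. Groups did not overlap for 28 members higher (32.6%, against 7.57% of all transcripts) and for 0 lower (against 8.53%). The median was 0.71 under TPM, against -0.86 over all transcripts, and 0.97 on the log2(FPM + 1) scale over 80 members, for which no background over all transcripts was computed. C/D box snoRNAs and Cajal body RNAs (SCARNA) had medians of 2.03 over 27 tested and 2.06 over 24, close to that of the H/ACA box snoRNAs.

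SNORA32 lies at chr11:93730979-93731099 on the minus strand within TAF1D, like SNORA18, and is shown because it is the member that passed.
SNORA32: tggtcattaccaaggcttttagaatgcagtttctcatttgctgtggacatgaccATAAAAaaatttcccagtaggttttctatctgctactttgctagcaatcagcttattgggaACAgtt
SNORA32 had 1674, 915 and 5106 FPKM in the DXO-KO-labelled libraries and 0 in the other 5 libraries. Those values stand for 11, 1 and 1 fragments. The fitted log2 difference was 10.96 (SE 0.63, limma adjusted p = 0.00307), a value set by the pseudocount. The mean of the DXO-KO-labelled libraries was 3.72 times the level of 3 fragments over the NAD-Capture WT libraries in FPKM and 2.24 times in FPM. That mean is taken as exact, though its highest FPKM value, 5106 in replicate 3, was 1 fragment, so neither ratio is a lower limit. The adjusted p was 0.0708 without NAD-Capture WT replicate 1 and 0.0702 without replicate 3. SNORA13, an 18S guide, had a similar pattern without passing: 2161, 1091 and 6119 FPKM, 24, 2 and 2 fragments, in the DXO-KO-labelled libraries, and 0, 502 and 0 in NAD-Capture WT (log2 difference 8.26, SE 2.27, limma adjusted p = 0.333).

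Among the 7 members with the most fragments, SNORA18 had 27720, 49301 and 168604 FPKM in the DXO-KO-labelled libraries, from 296, 87 and 53 fragments, above each NAD-Capture WT library (log2 difference 2.00, SE 1.06, limma adjusted p = 0.552). In FPM it held 266, 255 and 80.8 in NAD-Capture WT and 369, 633 and 659 in the DXO-KO-labelled libraries. SNORA20 had 25379, 73668 and 155879 FPKM, again above each WT library (log2 difference 2.64, SE 0.96, limma adjusted p = 0.470), and its mean FPM was 5.06 times those of NAD-Capture WT. SNORA49 rested on 318, 69 and 35 fragments and held 397, 502 and 435 FPM, against 99.1, 103 and 52.5 in NAD-Capture WT. This was the most even of the 7 within the DXO-KO-labelled libraries, with a mean of 445 ± 53.4 (SD, n = 3) against 84.9 ± 28.1, and its log2 difference in FPKM was 2.84 (SE 0.81, limma adjusted p = 0.350). SNORA6 held 447, 684 and 671 FPM, against 110, 194 and 72.7 in NAD-Capture WT (log2 difference in FPKM 2.73, SE 0.86, limma adjusted p = 0.412).

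SNORA3B and SNORA62 did not separate the NAD-Capture groups. SNORA3B had 3021, 51866 and 178729 FPKM in the DXO-KO-labelled libraries, from 31, 88 and 54 fragments, so that replicate 1, the deepest, was below every NAD-Capture WT library and the other 2 were above. Its log2 difference of 1.08 (SE 1.48, limma adjusted p = 0.753) was -0.35 under TPM, -0.32 under quantile normalization and -0.20 without replicate 3 labelled DXO-KO. SNORA62 had 6626, 24898 and 79751 FPKM, of which the lowest lay inside the NAD-Capture WT range (log2 difference 2.18, SE 1.06, limma adjusted p = 0.547).

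Some members with moderate levels separated the groups, yet did not pass. In others the groups overlapped, as in SNORA70 (log2 difference 0.78, SE 0.95, limma adjusted p = 0.711) and SNORA10 (0.14, SE 0.89, limma adjusted p = 0.969). SNORA67, an 18S guide within EIF4A1, had 774, 864 and 574 FPKM in NAD-Capture WT, 2 fragments in each, and 3260, 2825 and 5263 in the DXO-KO-labelled libraries, from 42, 6 and 2 fragments (log2 difference 2.32, SE 0.44, limma adjusted p = 0.171). SNORA64 had 1297, 1932 and 1606 FPKM against 5547, 6301 and 8832, the last from 3 fragments (log2 difference 2.09, SE 0.46, limma adjusted p = 0.252). SNORA63 had 2498, 3721 and 3402 FPKM against 8765, 11132 and 25510 (log2 difference 2.1, SE 0.62, limma adjusted p = 0.373). In SNORA67, SNORA64 and SNORA63 each library labelled DXO-KO was above each NAD-Capture WT library. SNORA48 went the other way without passing, with 584, 1518 and 0 FPKM against 2082, 1860 and 928 and overlapping groups (log2 difference -3.99, SE 2.46, limma adjusted p = 0.601).

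**Figure D4:**
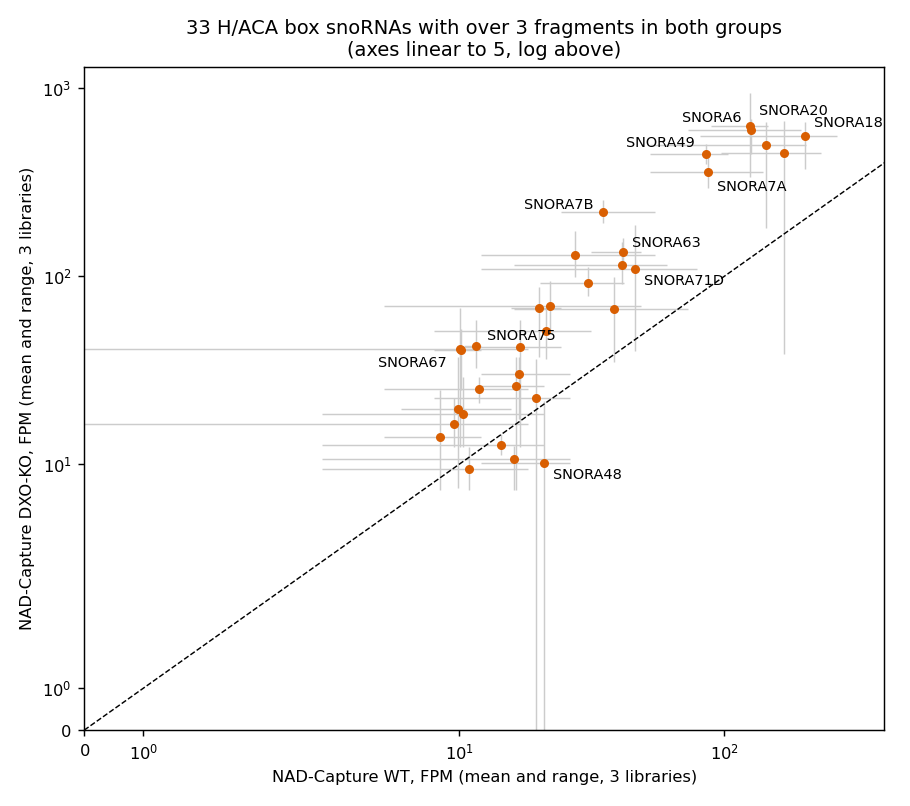
FPM in the NAD-Capture DXO-KO-labelled libraries against NAD-Capture WT for the 33 H/ACA box snoRNAs with over 3 fragments in both groups; points are means and bars the range of 3 libraries, on axes that are linear to 5 and logarithmic above. Of the 33, 29 lie above the dashed line of equal levels, with ratios of means from 0.489 for SNORA48 to 6.26 for SNORA7B and a median of 2.68.

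The DXO-KO-labelled libraries were also set against the RiboMinus libraries, the same controls as for NAD-Capture WT, so the comparisons are not independent. Of 88 members tested, 30 were called higher, against 4.41% of all transcripts, and 6 lower, against 9.63%, with a median log2 difference of 2.63 against 0.13 over all transcripts. Of 36 C/D box snoRNAs tested 25% were called higher, and of 24 Cajal body RNAs 45.8%, beside 34.1% of the H/ACA members. Under TPM the members' median was 0.15 against -2.13 over all transcripts. The members called under TPM were 16 higher, against 0.796% of all transcripts, and 6 lower, against 34.2%. Without RiboMinus replicate 1 the calls were 5 higher (0.379% of all transcripts) and 8 lower (6.89%), and without replicate 2 they were 5 higher (0.388%) and 7 lower (6.86%). SNORA75, SNORA36A, SNORA13 and SNORA32 were at 0 in RiboMinus. Their mean FPKM in the DXO-KO-labelled libraries was 205, 172, 115 and 48.9 times the level of 3 fragments over both RiboMinus libraries. By limma the adjusted p was 0.00963 for SNORA75, SNORA13 and SNORA32 and 0.00974 for SNORA36A. In replicate 3 labelled DXO-KO their values rested on 3, 3, 2 and 1 fragments. Without RiboMinus replicate 1 or 2 the adjusted p was 0.0535 and 0.0534 for SNORA32 and 0.068 and 0.0676 for SNORA36A. The 6 called lower, SNORA16B, SNORA2B, SNORA38B, SNORA46, SNORA80A and SNORA80B, were at 0 in the DXO-KO-labelled libraries, and their RiboMinus means would have given 0.341 to 2.25 fragments there, which is not detectable at this depth.

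Families that share a number show how far near copies can be read. SNORA7A and SNORA7B, guides of 28S ribosomal RNA, are 98.6% identical over 139 nt, and lie at chr3:12840312-12840450 within RPL32 and at chr3:129397210-129397348 within RPL32P3, a pseudogene of RPL32, both on the minus strand.
SNORA7A: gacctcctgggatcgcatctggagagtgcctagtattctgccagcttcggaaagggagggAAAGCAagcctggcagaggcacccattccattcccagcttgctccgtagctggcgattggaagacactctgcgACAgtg
SNORA7B: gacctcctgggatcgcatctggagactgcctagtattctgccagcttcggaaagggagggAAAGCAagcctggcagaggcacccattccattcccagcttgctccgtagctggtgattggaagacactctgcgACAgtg
SNORA7A had 18 and 45 fragments in RiboMinus, 13, 23 and 13 in NAD-Capture WT and 237, 60 and 28 in the DXO-KO-labelled libraries, and SNORA7B had 10 and 10, then 5, 9 and 6, then 153, 35 and 17. SNORA7A was above SNORA7B in every library, but with so few differing bases the authors' counting could have split their reads, so the pair is best read as a sum. Together they held 2.63 and 6.32 FPM in RiboMinus, 93.9, 194 and 76.7 in NAD-Capture WT and 487, 691 and 559 in the DXO-KO-labelled libraries, and the 3 groups did not overlap. Both were called higher in NAD-Capture WT than in RiboMinus, SNORA7A with a log2 difference of 3.79 (SE 0.56, limma adjusted p = 0.0140, and 0.157 and 0.103 without RiboMinus replicate 1 or 2) and SNORA7B with 4.01 (SE 0.43, limma adjusted p = 0.00624). Between the NAD-Capture groups they did not pass (limma adjusted p = 0.407 and 0.253).

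In the SNORA71 family, SNORA71A to SNORA71D are guides of 18S ribosomal RNA that share the host SNHG17, yet differed in level. SNORA71A and SNORA71D are 83.1% identical. They are shown because they exchange places between the kinds of library. The GENCODE models hold no ACA exactly 3 nt from the end, and only the ANANNA taken as the H box is in capitals.
SNORA71A: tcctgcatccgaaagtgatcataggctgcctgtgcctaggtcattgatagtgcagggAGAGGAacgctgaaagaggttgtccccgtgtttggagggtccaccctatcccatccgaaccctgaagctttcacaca
SNORA71D: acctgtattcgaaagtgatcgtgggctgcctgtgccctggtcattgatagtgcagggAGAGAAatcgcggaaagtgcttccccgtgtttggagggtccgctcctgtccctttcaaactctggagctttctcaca
SNORA71A lies at chr20:38427309-38427442 and SNORA71D at chr20:38433865-38433998, both on the minus strand. In RiboMinus SNORA71A had 170 and 260 fragments and SNORA71D 38 and 54. In NAD-Capture WT SNORA71A had 6, 4 and 2 and SNORA71D 9, 13 and 3, so that SNORA71D was the higher of the pair in each of these libraries. In the DXO-KO-labelled libraries the fragments were 54, 5 and 4 for SNORA71A and 32, 14 and 15 for SNORA71D, which was the higher in replicates 2 and 3. SNORA71C and SNORA71B, with 31 and 33 and with 9 and 7 fragments in RiboMinus, had 0 to 2 in each NAD-Capture library. None of the family passed the test between NAD-Capture WT and RiboMinus, where SNORA71D had a log2 difference of 1.93 (SE 0.90, limma adjusted p = 0.243).

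In the SNORA70 family 1 member held nearly all of the reads. SNORA70 had 126 and 155 fragments in RiboMinus, while its 6 lettered relatives, 82.2% to 90.4% identical to each other and to it, had 1 fragment in all in RiboMinus and 1 in NAD-Capture WT. SNORA3A and SNORA3B, 71.1% identical and both within RPL27A, differed by kind of library: SNORA3A had 6 and 5 fragments and SNORA3B 1 and 6 in RiboMinus, but in NAD-Capture WT SNORA3A had 5, 4 and 2 and SNORA3B 34, 38 and 24. SNORA11B, SNORA11C, SNORA11D and SNORA11E were near or at 0 everywhere, the highest value being 3 fragments of SNORA11B in RiboMinus replicate 2; SNORA11D and SNORA11E have identical sequences. SNORA2C, of the SNORA2 family within KANSL2, had 13 and 19 fragments in RiboMinus, beside 4 and 5 of SNORA2B, and 1 to 11 in each NAD-Capture library. SNORA5A, of the SNORA5 family within TBRG4, had 1 and 2 in RiboMinus, where SNORA5C had 4 and 0, and 22, 1 and 1 in the DXO-KO-labelled libraries. SNORA36B had 3 and 1 fragments in replicates 1 and 3 labelled DXO-KO and 0 elsewhere.

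Members within the same host gene could differ widely in level. A host, a gene whose span holds the member on the same strand in GENCODE, was found for 102 of the 105. TAF1D holds 6: SNORA18 had 51, 42 and 20 fragments in NAD-Capture WT, against 10 or fewer over the 3 libraries together for each of SNORA8, SNORA25, SNORA40, SNORA1 and SNORA32. The host itself had 37.2 and 39.8 FPKM in RiboMinus, 54.9, 74.4 and 45.9 in NAD-Capture WT and 75.2, 108 and 112 in the DXO-KO-labelled libraries. EIF4A1 holds SNORA48 and SNORA67, and between NAD-Capture WT and the DXO-KO-labelled libraries the mean FPM was 0.489 times as high for SNORA48 and 3.95 times for SNORA67. In RPSA, SNORA6 and SNORA62 had alike mean levels in NAD-Capture WT, 125 and 144 FPM. In the DXO-KO-labelled libraries SNORA6 had 447, 684 and 671 FPM and SNORA62 181, 662 and 659, so they differed in replicate 1. Over all members with a host, Pearson's r between the host's and the member's log2 difference was 0.033 over 84 members and 63 hosts between the NAD-Capture groups, and 0.188 over 85 members between NAD-Capture WT and RiboMinus; members of 1 host share its value and all share the same libraries, so r is a description. The median host log2 difference was 0.36 where the members' was 2.09 between the NAD-Capture groups, and -0.80 where theirs was 0.88 between NAD-Capture WT and RiboMinus.

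**Figure D5:**
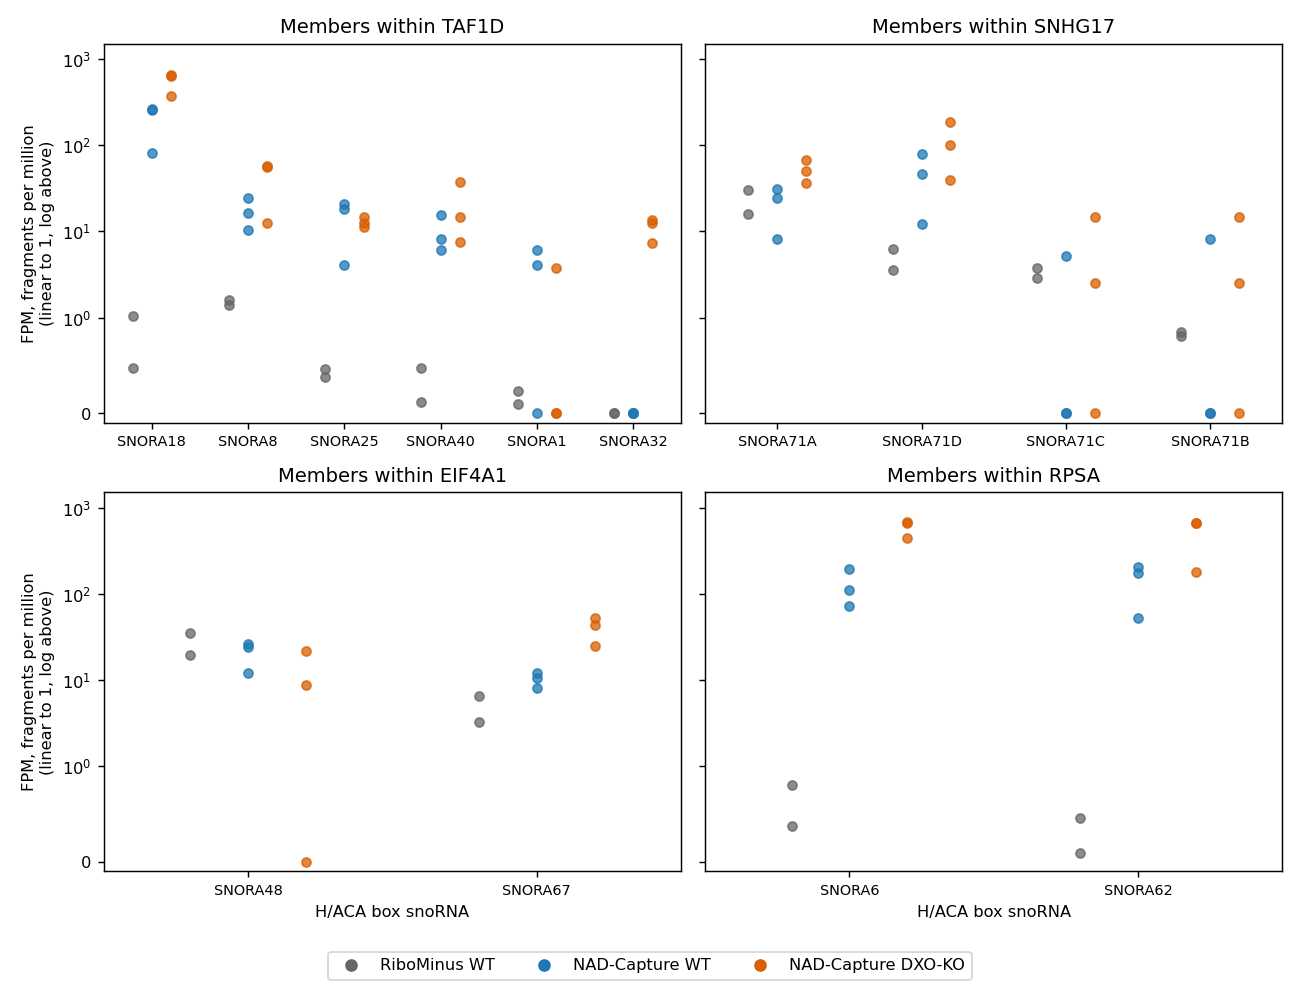
FPM in each of the 8 libraries (points) for the H/ACA box snoRNAs within TAF1D, SNHG17, EIF4A1 and RPSA, on a scale that is linear to 1 and logarithmic above; grey is RiboMinus WT, blue NAD-Capture WT and orange NAD-Capture labelled DXO-KO. SNORA18 stands above the other 5 members of TAF1D in the NAD-Capture libraries, and SNORA48 lies lower in NAD-Capture than SNORA6 and SNORA62 although it is far above them in RiboMinus.

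Some of the members can also be grouped by the ribosomal RNA they guide. The lists used do not cover all 105 symbols, and SNORA18, SNORA6 and SNORA49 are among those in no list. Of 24 listed guides of 18S ribosomal RNA, 22 were tested between NAD-Capture WT and RiboMinus, of which 4 rose (SNORA20, SNORA24, SNORA25 and SNORA36A) and 1 was called lower (SNORA46, at 0), with a median log2 difference of 0.23. Over all transcripts 12.6% were called higher and 13.1% lower. Of 25 listed guides of 28S ribosomal RNA, 9 rose and 2 were called lower (SNORA52 and SNORA54, at 0), with a median of 2.2. Between the NAD-Capture groups none of 23 and 25 tested passed limma's adjusted threshold, where 0.032% of all transcripts did. An unadjusted limma p under 0.05 was found for 7 and 9, against 9.17% of all transcripts. The medians were 2.64 and 1.60, against -0.06 over all transcripts, with 21 and 20 members above 0, against 48.1%. The difference between the lists was not tested. Neither the first base of the GENCODE model nor GC content was tested either: the members begin with A in 18, C in 25, G in 34 and T in 28 cases, and of those called higher in NAD-Capture WT 3, 3, 9 and 4 begin with these bases. The median GC content was 45% in the 19 called higher, 49.6% in the 10 called lower and 50.7% in the 57 not called, and the median length 137, 133 and 134 nt.

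Transcripts of the proteins of the H/ACA particle were set beside the snoRNAs. Of 16 tested transcripts of 8 genes of core and assembly proteins, none passed between the NAD-Capture groups by limma, where 0.032% of all transcripts did. An unadjusted limma p under 0.05 was found for 2 of the 16, against 9.17% of all transcripts. DKC1, summed over its transcripts, had 114 and 118 FPKM in RiboMinus, 50.3, 43.3 and 41.2 in NAD-Capture WT and 53.2, 70.4 and 47.1 in the DXO-KO-labelled libraries. Between NAD-Capture WT and RiboMinus 1 of the 16, a DKC1 transcript, was called higher, against 12.6% of all transcripts. Another 2 of the 16, also of DKC1, were called lower, against 13.1%. No transcript of NHP2, NOP10, GAR1, NAF1, SHQ1, RUVBL1 or RUVBL2 passed. Of the enzymes that trim and tail snoRNA ends, 1 transcript of PARN, a deadenylase, and XRN2, a 5′ exonuclease, were called lower in NAD-Capture WT, 2 of 8 tested transcripts against 13.1% of all. XRN2 had 62.4 and 62.0 FPKM in RiboMinus and 19.4, 28.2 and 13.8 in NAD-Capture WT. SNORA73B, which was left out of the set, had 8943 and 8254 FPKM in RiboMinus, 17350, 25523 and 7258 in NAD-Capture WT and 6853, 36605 and 152740 in the DXO-KO-labelled libraries. TERC, the telomerase RNA with an H/ACA domain, had 102 and 131 FPKM, then 52.7, 202 and 80.2, then 276, 144 and 306.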

How the data were processed

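RNA of 8 HEK293T libraries was measured by sequencing. The authors deposited FPKM values per RefSeq transcript and library, made with TopHat2 2.1.1, Bowtie2 2.2.8.0 and Cuffdiff on the genome build hg19, per the submitters' processing notes; the annotation version and any scaling between libraries are not given in the sources used here. The FPKM values were used as deposited. A RefSeq gene table paired 52028 of the 53216 transcripts (97.8%) with symbols. Sequences, coordinates and hosts came from GENCODE release 29 (GRCh38), and no coordinates of the deposited table were converted; the sequences of some members are not reported here. Members and lists were chosen with earlier results of these data known. The tests used the limma package (3.58.1, under R 4.3.3), with a trended and non-robust eBayes step after lmFit, on log2(FPKM + 1), two-sided. They covered transcripts averaging 1 FPKM or more across the compared libraries, with Benjamini-Hochberg adjustment over all of them and a threshold of 0.05. This scale understates changes of transcripts near 1 FPKM. For a member of 133 nt, however, 1 fragment was worth 15.8 to 3076 FPKM. Where a group was at 0, the pseudocount thus set the log2 difference and could enlarge it. Such a group also added no spread between its libraries, so the SE and limma p of these calls do not cover its counting error. For SNORA32 it was 10.96, where its mean FPKM was 3.72 times the level of 3 fragments over the NAD-Capture WT libraries. Only the groups compared entered a fit. The fit was tested on simulated data. These were made only from transcripts above 0 in every library compared, so that test does not cover calls with a group at 0. Fragments were recovered by dividing a member's FPKM by the value of 1 fragment at its length, estimated in each library from low values between 121 and 154 nt; this holds for most low values and not all. Depth came from transcripts of 2 to 6 kb that were the only one of their gene. These counts have no molecular identifiers, so limits from 3 fragments cover only the counting error of the group at 0. The mean of the other group is taken as exact. Named members were those called with the largest change, up to 8 in each direction, the 6 most abundant in each group, SNORA32, and families of at least 3 rows; the other members named, among them SNORA3A, SNORA7A and SNORA7B as pairs and the members of shared hosts, were chosen after their values were seen. The alternatives were other pseudocounts (0.1 and 10), filters, scalings, fits and left-out libraries.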

Additional observations from a re-analysis of the deposited data

How the results depend on the processing

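The number of calls moved with the libraries left out, the replicate block, zeros and scaling. In a refit of only the transcripts above 0 in every library compared, 0 of 35 members were called between the NAD-Capture groups. Of all transcripts 0.058% were called higher there and 0.0695% lower. Between NAD-Capture WT and RiboMinus 17 of 33 members were called, against 19.7% of all transcripts higher and 14.7% lower. The members' medians against RiboMinus were 2.85 for NAD-Capture WT and 4.36 for the DXO-KO-labelled libraries. A fragment was worth more FPKM in each NAD-Capture library than in RiboMinus, so this filter favours members high there. These calls and medians therefore cannot show a rise. Leaving out 1 library at a time gave 0 to 4 calls between the NAD-Capture groups (0 without NAD-Capture WT replicate 1 or 3, 4 without replicate 2, 2 without replicate 2 labelled DXO-KO), 19 to 38 between NAD-Capture WT and RiboMinus (6 higher and 14 lower without RiboMinus replicate 1, 7 and 12 without replicate 2; median 0.66 to 1.55) and 12 to 43 for the DXO-KO-labelled libraries against RiboMinus (13 and 12 without RiboMinus replicate 1 and 2); where this left 1 RiboMinus library, it was assumed to vary like the other group. Over all transcripts, leaving out 1 library between the NAD-Capture groups gave 0% to 0.0288% higher and 0% to 0.0329% lower. Without 1 NAD-Capture WT library 16.6% to 17% were called higher than in RiboMinus and 17.1% to 18.4% lower. Without 1 library labelled DXO-KO these were 3.11% to 11.6% and 7.4% to 18.7%. One fit over all 8 libraries called 2 members higher between the NAD-Capture groups, against 0.224% higher and 0.34% lower of all transcripts. Replicate numbers did not pair the samples, with correlations of -0.0246, -0.0141 and -0.0302 between same-numbered NAD-Capture libraries. With the replicate block 0 members were called in each of the 3 comparisons, and 0 of all transcripts, so that setting says nothing particular to the members. Scaling moved the median of all transcripts between the NAD-Capture groups from -0.06 to -0.86 under TPM, and the members' median to 0.71 (0.97 in FPM). For NAD-Capture WT against RiboMinus the members' median was 0.35 when centred on the median transcript, 0.34 under quantile normalization and -0.29 under TPM, and for the DXO-KO-labelled libraries 1.44 under quantile normalization and 0.15 under TPM, with 22 calls. Directions reversed for SNORA3B between the NAD-Capture groups (-0.32 quantile, -0.35 TPM, -0.20 to 2.75 with 1 library left out, lowest without replicate 3 labelled DXO-KO) and SNORA70 (-0.65 TPM, -0.22 to 1.82 with 1 library left out). Against RiboMinus they reversed in NAD-Capture WT for SNORA63 (-0.13 centred, -2.38 quantile, -1.19 TPM) and SNORA64 (-0.27, -1.78, -1.33), and in the DXO-KO-labelled libraries for SNORA63 (-1.65 quantile, -0.52 TPM), SNORA64 (-1.02, -0.67), SNORA71A (-3.17, -2.36) and SNORA70 (-1.11 to 0.93 with 1 library left out, highest without replicate 2 labelled DXO-KO). The H/ACA share of summed FPKM in RiboMinus was 3.90% without the most abundant member and 4.89% without C/D box rows in the sum, and 24.6% without those rows in the DXO-KO-labelled libraries. The cause of these changes was not tested.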
